A study of Mus musculus with 4 samples.

Results

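The transcripts of 10 enteroendocrine genes were followed in mouse caecal tissue on Affymetrix expression arrays. The genes encode the peptides Nts, Gcg, Cck, Pyy, Insl5, Sct and Sst, the granule proteins Chga and Chgb, and the serotonin-synthesising enzyme Tph1. The 10 genes were chosen with earlier results of these data known. Their counts and medians are therefore set beside those of all genes as descriptions only. They were taken as the probe sets that the annotation assigns to 1 of these symbols alone. Each gene had 1 such probe set and 0 probe sets shared with another gene, so the 10 genes stand among 22180 genes with a probe set of their own.

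Of the 4 groups, 2 lacked apolipoprotein E (apoE KO), the ligand by which lipoprotein remnants are cleared, and 2 were wild type (WT). In each genotype a group given prebiotics was set against a group without them. All mice were C57Bl/6 and were 21 weeks old, and their feed lacked n-3 polyunsaturated fatty acids (the n-3 PUFA depleted-diet of the labels), so the groups without prebiotics also carry that depletion. The prebiotic was Orafti P95, an oligofructose that gut bacteria ferment, at 250 mg daily for each mouse during the final 15 days. Each group was 1 array hybridised with RNA pooled from 6 mice, and the mice had been selected on the quality of their RNA. No group therefore has a replicate, the variation between mice cannot be seen, and a p-value reflects only how the 4 pools vary. In such tissue, fewer enteroendocrine cells and less RNA per cell cannot be told apart.

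The diet of the 2 WT arrays is in doubt. For each of them 3 label fields (title, source name and treatment) name a diet and 1 field (description) names the other diet, whereas 0 KO arrays have such a conflict. WT arrays are called here by their titles. The difference over both genotypes of each gene tested is also given with the pair exchanged, and every other value that needs the diet of a WT array holds by title alone unless the exchange is named. Apoe itself had log2 values of 3.13 and 2.83 in the KO pools with and without prebiotics, and 4.09 and 3.90 on the WT arrays titled with and without them, so the KO arrays were below the WT arrays.

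Enteroendocrine cells are scattered hormone-secreting cells of the gut epithelium. They sense nutrients and microbial products in the lumen and release peptides and serotonin from dense-core granules towards blood vessels and nerves. In the caecum and colon, the L cells that make proglucagon and peptide YY and the enterochromaffin cells that make serotonin are the best known types. Fermentable carbohydrates are known for raising the gut hormones of L cells in rodents. Of 13 markers of enteroendocrine cells, the 10 genes with Neurod1, Pcsk1 and Scgn, 8 reached the median of every array, while Insl5 and Neurod1 reached it on none.

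The 3 genes called higher with prebiotics under the titled labels (limma adjusted p under 0.05) were Nts, Gcg and Cck. Their promoters are shown because these 3 were the genes called. Each window is RefSeq sequence of build GRCm38.p6, runs from 250 bases before the annotated transcription start to 50 bases after it, and is read 5′ to 3′ on the minus strand, the strand of all 3 genes. Capitals mark matches, on either strand, to the E-box CANNTG, the AP-1 site TGANTCA, the TATA box TATAAA and the cyclic AMP response element TGACGTCA. The Nts window lies at chr10:102490369-102490668, the Gcg window at chr2:62483604-62483903 and the Cck window at chr9:121495645-121495944.
Nts: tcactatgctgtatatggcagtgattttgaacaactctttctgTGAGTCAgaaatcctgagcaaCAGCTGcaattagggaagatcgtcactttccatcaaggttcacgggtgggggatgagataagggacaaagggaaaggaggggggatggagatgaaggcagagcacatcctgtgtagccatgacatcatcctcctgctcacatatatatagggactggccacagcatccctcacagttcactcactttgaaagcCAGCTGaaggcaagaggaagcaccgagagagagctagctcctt
Gcg: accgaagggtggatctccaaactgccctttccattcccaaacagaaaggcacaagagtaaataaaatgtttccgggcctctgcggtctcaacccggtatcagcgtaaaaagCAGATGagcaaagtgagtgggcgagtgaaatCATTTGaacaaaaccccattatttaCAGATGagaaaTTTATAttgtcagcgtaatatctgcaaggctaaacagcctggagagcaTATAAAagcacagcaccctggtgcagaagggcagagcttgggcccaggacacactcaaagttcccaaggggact
Cck: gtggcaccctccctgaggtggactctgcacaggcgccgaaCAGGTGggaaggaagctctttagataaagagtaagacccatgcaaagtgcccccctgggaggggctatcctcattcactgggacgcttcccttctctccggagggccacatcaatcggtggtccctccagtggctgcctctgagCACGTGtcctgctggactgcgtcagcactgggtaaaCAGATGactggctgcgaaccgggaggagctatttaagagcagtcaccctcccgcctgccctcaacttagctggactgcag

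In these windows the Nts promoter held 1 AP-1 match, which begins 207 bases before the start, and 2 E-box matches. The Gcg promoter held 2 TATA box matches, of which 1 begins 24 bases before the start, and 3 E-box matches. The Cck promoter held 3 E-box matches and no match to the other letters. E-boxes, the sites of basic helix-loop-helix factors, were present in 72.3% of the 32851 mouse promoter windows of the same length, AP-1 matches in 7.81%, TATA boxes in 13.6% and the cyclic AMP response element in 1.79%. All 10 genes matched the RefSeq table, with 13 windows between them, and all 10 held an E-box in at least 1 window. The cyclic AMP response element was found in the windows of Sst and Chgb, 48 and 72 bases before the start. None of the letters matched was shared by Nts, Gcg and Cck other than the common E-box.

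Among the peptide genes, neurotensin (Nts) differed most between arrays. It encodes the peptide of N cells of the distal small intestine, which aids fat uptake. Nts had a log2 value of 6.66 in the KO pool with prebiotics and 4.47 in the KO pool without. It had 6.52 on the WT array with prebiotics by title, against 4.53 on the WT array without. The 2 arrays titled with prebiotics were high and nearly level, the other 2 were low and nearly level, and the groups did not overlap.

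With the titled labels, Nts rose by a log2 difference of 2.09, or 4.25-fold (SE 0.13, 95% interval 1.79 to 2.38, limma adjusted p = 0.00017 over 13083 genes). In all, 3 of the 10 genes were called higher, Nts, Gcg and Cck, and 0 were called lower. Over all genes tested, 0.994% were called higher and 0.26% lower. As the 10 were chosen with earlier results of these data known, this contrast is not a test. With the WT pair exchanged, the Nts difference was 0.10 (limma adjusted p = 1) and 0 of the 10 genes were called, so these calls rest on the WT titles. Over all genes the exchanged fit also called 0 in limma, with 170 at an unadjusted p under 0.05, none of them among the 10.

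Proglucagon (Gcg) is the precursor from which L cells cut glucagon-like peptides 1 and 2, which raise insulin release and support epithelial growth. Gcg had 8.04 in the KO pool with prebiotics and 6.83 in the KO pool without. It had 7.90 on the WT array with prebiotics by title, against 6.22 on the WT array without. Both arrays titled with prebiotics lay above both others, and the 2 arrays without differed from each other more than the 2 with did. Gcg rose by 1.44 on the log2 scale, or 2.71-fold (SE 0.13, 95% interval 1.15 to 1.73, limma adjusted p = 0.0013). With the WT pair exchanged the difference was -0.23 (limma adjusted p = 1).

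Cholecystokinin (Cck), the peptide of I cells that contracts the gallbladder and signals satiety, is best known from the upper small intestine. Cck had 4.48 in the KO pool with prebiotics and 2.76 in the KO pool without. It had 4.04 on the WT array with prebiotics by title, against 3.32 on the WT array without. The KO pool without prebiotics was the lowest and lay below its array median of 2.99 for probe sets with 1 symbol, so the size of the KO difference is not well determined. On the other 3 arrays Cck lay above the median.

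Cck rose by 1.22, or 2.34-fold (SE 0.21, 95% interval 0.74 to 1.70, limma adjusted p = 0.029). Its 2 pair differences, 1.73 in KO and 0.72 in WT by title, both lie outside this interval. The error of the fit is drawn in part from other genes, so the interval does not describe how far the Cck pairs differ. The call was lost without the expression filter (limma adjusted p = 0.074), without the trend in the variance (limma adjusted p = 0.13) and with the WT pair exchanged (difference 0.50, limma adjusted p = 1). Without either WT array the Cck value is the KO difference of 1.73, and without either KO array it is the WT difference of 0.72, neither with a test.

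**Figure D1:**
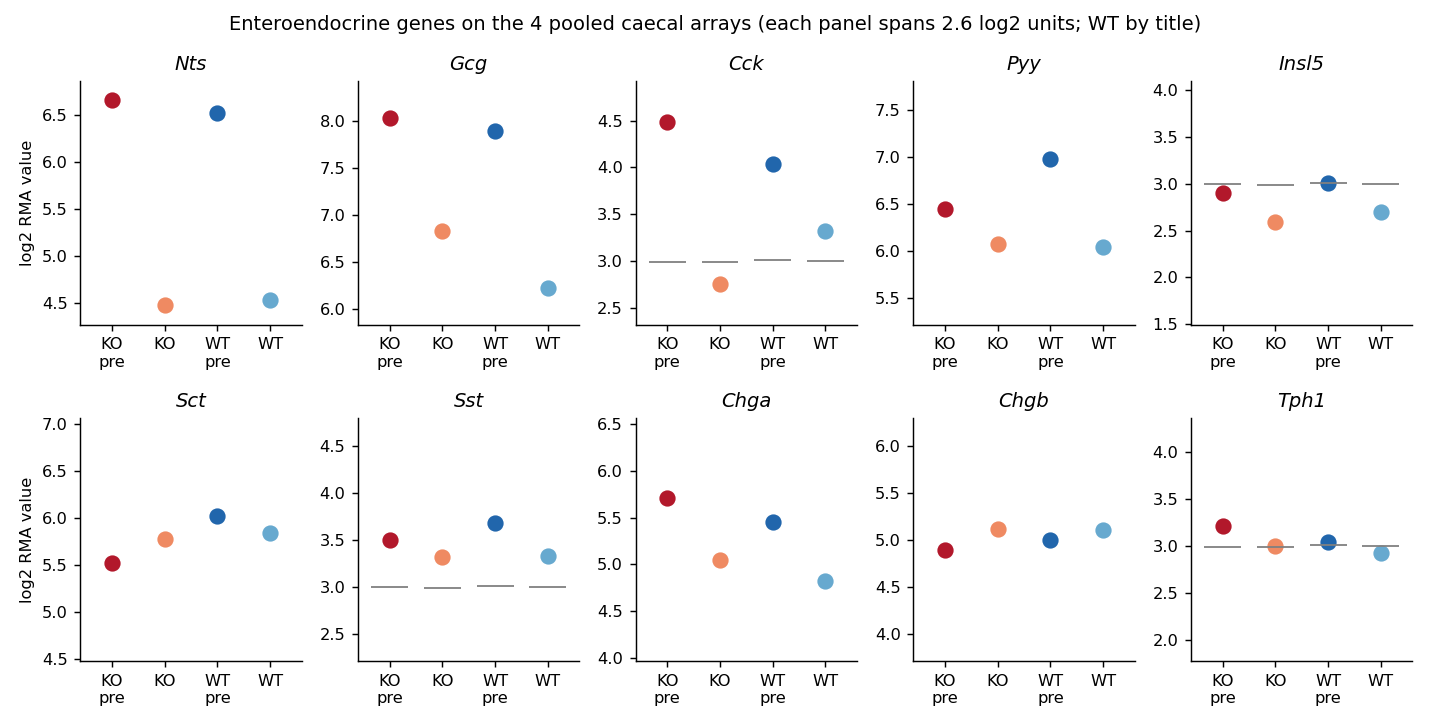
Log2 RMA value of each gene (y axis) on the 4 pooled arrays (x axis), 1 point per array, with KO pre and WT pre for the arrays titled with prebiotics. Every panel spans the same number of log2 units and grey dashes mark the array medians of probe sets with 1 symbol where they fall in the panel. Nts stood at 6.66 and 6.52 on the arrays titled with prebiotics and at 4.47 and 4.53 on the others, while Chgb had the narrowest range, 0.23.

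The other L cell peptide of the set, peptide YY (Pyy), restrains appetite and gut movement. Pyy had 6.45 in the KO pool with prebiotics and 6.08 in the KO pool without. It had 6.98 on the WT array with prebiotics by title, against 6.05 on the WT array without. The array order was that of Gcg with respect to diet, but the WT array titled with prebiotics, not the KO one, was the highest. The difference over both genotypes was 0.65, with a 95% interval of 0.32 to 0.99, and did not pass (SE 0.15, limma adjusted p = 0.080). It passed after centring each array on its median (limma adjusted p = 0.048), and turned to -0.28 with the WT pair exchanged.

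Insulin-like peptide 5 (Insl5), a product of L cells of the distal colon and the ligand of the receptor Rxfp4, had 2.91 in the KO pool with prebiotics and 2.59 in the KO pool without. It had 3.01 on the WT array with prebiotics by title, against 2.70 on the WT array without. All 4 values lay below the medians of their arrays, so Insl5 was the 1 gene of the 10 that was not tested. Its differences, 0.32 in KO and 0.30 in WT by title, are given as values only. The receptor gene Rxfp4 also stayed below the medians of all arrays.

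Secretin (Sct), which stimulates bicarbonate secretion by the pancreas, had 5.52 in the KO pool with prebiotics and 5.78 in the KO pool without. It had 6.02 on the WT array with prebiotics by title, against 5.84 on the WT array without. The arrays titled with prebiotics were the lowest and the highest of the 4, so the diets overlapped. Sct differed by -0.04 over both genotypes, with a 95% interval of -0.36 to 0.28 (SE 0.14, limma adjusted p = 0.95), and by -0.21 with the WT pair exchanged.

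Somatostatin (Sst), the peptide of D cells that restrains the release of other gut hormones and is also made by neurons, had 3.50 in the KO pool with prebiotics and 3.32 in the KO pool without. It had 3.68 on the WT array with prebiotics by title, against 3.33 on the WT array without. All its values lay a little above the array medians and those titled with prebiotics were the higher. The difference of 0.27, with a 95% interval of -0.04 to 0.57, did not pass (SE 0.14, limma adjusted p = 0.44). It was -0.0896 with the WT pair exchanged.

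Of the granule proteins, chromogranin A (Chga) packs hormones into dense-core granules and is the usual marker of enteroendocrine cells. Chga had 5.71 in the KO pool with prebiotics and 5.05 in the KO pool without. It had 5.45 on the WT array with prebiotics by title, against 4.82 on the WT array without. Its pair differences were nearly equal, 0.66 in KO and 0.63 in WT by title. The difference over both genotypes was 0.64, with a 95% interval of 0.35 to 0.94, and lay just outside the threshold (SE 0.13, limma adjusted p = 0.052). The call was made with the mean over each gene's probe sets, which changes other genes in the fit and not Chga (limma adjusted p = 0.043), and after centring on the median (limma adjusted p = 0.032). With the WT pair exchanged the difference was 0.02.

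Chromogranin B (Chgb), a second granin of the same granules, had 4.89 in the KO pool with prebiotics and 5.12 in the KO pool without. It had 4.996 on the WT array with prebiotics by title, against 5.11 on the WT array without. Chgb was the 1 gene of the 10 with both arrays titled with prebiotics below both others, and its whole range of 0.23 was the narrowest of the set. The difference of -0.17, with a 95% interval of -0.47 to 0.13, did not pass (SE 0.13, limma adjusted p = 0.64). Exchanging the WT pair gave -0.06.

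Tryptophan hydroxylase 1 (Tph1), the rate-limiting enzyme of serotonin synthesis in enterochromaffin cells, had 3.22 in the KO pool with prebiotics and 3.003 in the KO pool without. It had 3.04 on the WT array with prebiotics by title, against 2.92 on the WT array without. These values lie around the array medians, and the WT array titled without prebiotics fell below its own. The difference of 0.17, with a 95% interval of -0.13 to 0.47, did not pass (SE 0.13, limma adjusted p = 0.65). Exchanging the WT pair gave 0.04.

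Within the KO pair, whose labels do not conflict, 3 of the 10 genes were at least 2-fold higher with prebiotics, Nts at 4.55-fold, Gcg at 2.31-fold and Cck. Cck entered only through the array with prebiotics, since its other value lay below the array median, so its measured 3.31-fold is uncertain, and with the filter at the 75th percentile the count was 2. The count of 3 compares with 0.475% of 12216 genes measured in that pair. Chga followed at 1.58-fold and Pyy at 1.29-fold, while Chgb and Sct were lower, with log2 differences of -0.23 and -0.25. With 1 array against 1 array these differences have no replicate check and no test.

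Within the WT pair by title, 2 of the 10 genes were at least 2-fold higher, Nts at 3.98-fold and Gcg at 3.19-fold, against 0.335% of 12223 genes. On the array titled with prebiotics Pyy was higher by 1.91-fold and Cck by 1.65-fold. If the descriptions are right, each of these is lower with prebiotics by as much. Over all 10 genes the median log2 difference was 0.35 in the KO pair and 0.49 in the WT pair by title. Over the 9 of them that were tested these medians were 0.37 and 0.63, and over all genes tested 0.03 and 0.02.

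With WT by title, both pair differences were above 0 for 8 of the 10 genes, as for 34.1% of all genes tested. By rank of values, 8 of the 10 genes had both arrays titled with prebiotics above both others, as did 25.5% of all genes tested. Chgb had them below both others, as did 17.4% of all genes tested, and Sct overlapped. The median over the 10 genes of the difference over both genotypes was 0.48, and 0.64 over the 9 of them tested, against 0.02 over all genes tested. Insl5, which was not tested, is among the 8 genes of both counts. The 10 genes were chosen with earlier results of these data known, so these contrasts are not tests.

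**Figure D2:**
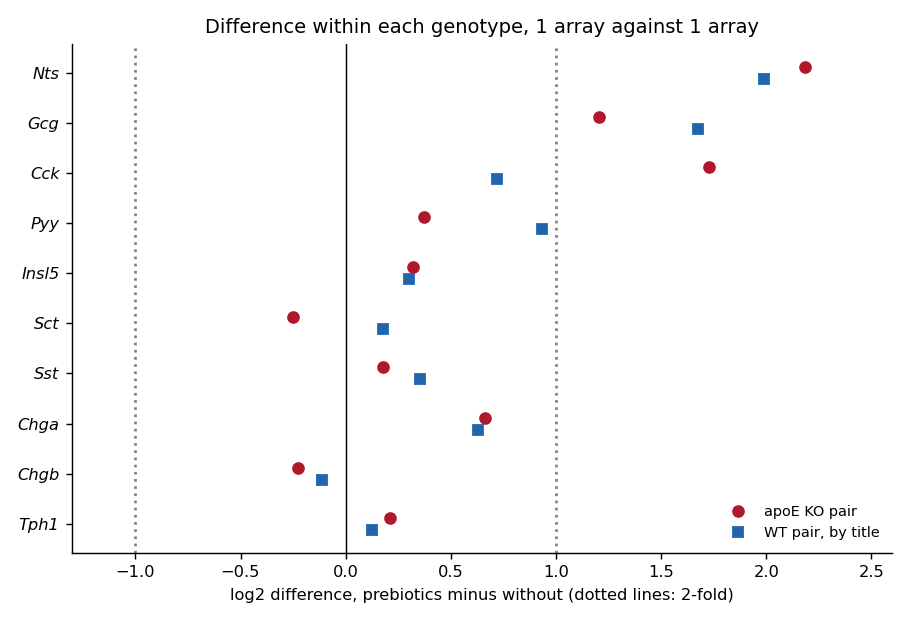
Log2 difference, prebiotics minus without (x axis), for each gene (rows) in the apoE KO pair (red circles) and in the WT pair by title (blue squares), 1 array against 1 array. Nts lay close to 2 log2 units in both pairs, Cck at 1.73 in KO and 0.72 in WT, and Sct on opposite sides of 0.

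With WT by title, the pairs differed from each other most for Cck, whose KO difference exceeded its WT difference by 1.01 log2 units. Gcg and Pyy went the other way, with KO minus WT values of -0.47 and -0.56, and for Nts it was 0.20. With the WT pair exchanged the order changed, to 4.18 for Nts, 2.88 for Gcg, 2.45 for Cck and 1.303 for Pyy. These differences between pairs leave no residual degree of freedom and could not be tested.

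Between genotypes, 0 of the 9 genes tested were called, 0 had an unadjusted p under 0.05, and limma called 0% of all 13083 genes, with 430 at an unadjusted p under 0.05. This comparison does not depend on the diet labels of the WT arrays. Apoe, the gene that the KO mice lack, was not called either, at -1.02 (SE 0.16, limma adjusted p = 0.78). The absence of calls therefore does not show that the genotypes are alike. Nts averaged 5.57 on KO arrays and 5.52 on WT arrays, a difference of 0.04 with a 95% interval of -1.82 to 1.90. Because the diets enter its error, the interval is wide for each gene with a large diet difference. Gcg averaged 7.44 on KO arrays and 7.06 on WT arrays, a difference of 0.37 with an interval of -0.94 to 1.69.

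The secretin gene was the 1 of the 10 whose genotypes did not overlap, with KO arrays at 5.52 and 5.78 and WT arrays at 6.02 and 5.84. Over all genes tested, 14% had both KO arrays below both WT arrays and 16.2% had them above. Its difference of -0.28 (SE 0.16, 95% interval -0.65 to 0.09, limma adjusted p = 0.999) did not pass. The intervals of Pyy, Sct, Sst, Chga, Chgb and Tph1 stayed within 2-fold in either direction, whereas those of Nts, Gcg and Cck reached beyond it. With diet as a block, 0 of the 10 genes were called as well.

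**Figure D3:**
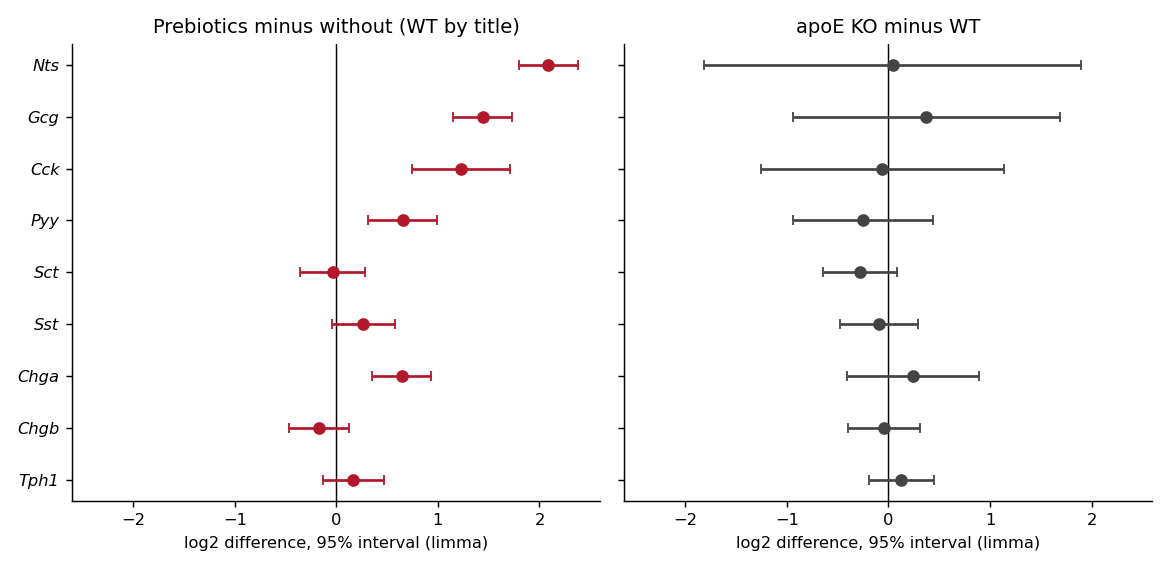
Log2 difference (x axis, points) with its 95% limma interval (bars) for the 9 genes tested (rows), for prebiotics minus without over both genotypes with WT by title (left) and for apoE KO minus WT (right). On the left the intervals of Nts, Gcg, Cck, Pyy and Chga lie to the right of 0, though only Nts, Gcg and Cck passed after adjustment. All genotype intervals on the right include 0.

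Other genes of enteroendocrine cells were read from lists that do not hold the 10. Of 12 tested genes for other gut hormones and peptides, 1 was called higher and 0 lower, the guanylin gene Guca2a (0.25, SE 0.04, limma adjusted p = 0.028), which is also a colonocyte gene. The largest differences there that did not pass were those of Vip, an enteric neuropeptide (-0.29), Guca2b, which encodes uroguanylin (0.26), and Penk, the enkephalin precursor (0.25). The median of the list was 0.08.

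Of 9 tested transcription factors of the lineage, 0 passed in limma, whether higher or lower. For 2 the unadjusted p was under 0.05, as for 1799 of all 13083 genes in the prebiotic fit. The largest differences were those of Insm1, a zinc finger factor of endocrine differentiation (0.34, SE 0.13, limma adjusted p = 0.31), Foxa1 (0.26) and Atoh1, which directs secretory fate (0.22). Neurog3, the factor that starts the endocrine lineage, had 2.61 and 2.85 in the KO pools with and without prebiotics and 3.03 and 2.67 on the WT arrays titled with and without them, and reached the array median on 1 array, the WT array titled with prebiotics. Neurod1, which acts after Neurog3, stayed below the medians of all arrays.

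Of 11 tested genes of hormone processing and secretory granules, 0 were called in limma and 1 had an unadjusted p under 0.05. Carboxypeptidase E (Cpe), which trims peptide precursors, differed by -0.36 (SE 0.14, limma adjusted p = 0.29). Scgn, a calcium sensor of endocrine cells, differed by 0.24 and Scg2, another granin, by -0.22. The median of the list was 0.03, against 0.02 over all genes tested.

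Among 7 tested genes of amine synthesis and storage 1 was called higher and 0 lower. It was the amine oxidase gene Maoa (0.34, SE 0.05, limma adjusted p = 0.014), which degrades serotonin in many cell types. Its relative Maob differed by 0.48 (limma adjusted p = 0.065) and the cofactor enzyme gene Gch1 by 0.32. Among 10 tested sensors 1 was called higher and 0 lower, Ffar4, the receptor for long-chain fatty acids including n-3 forms. Ffar4 had 4.81 in the KO pool with prebiotics and 3.64 in the KO pool without, and 4.32 and 3.76 on the WT arrays titled with and without them, a difference of 0.86 (SE 0.17, limma adjusted p = 0.047). The glucose transporter Slc5a1 (0.49, limma adjusted p = 0.088) and the peptide transporter Slc15a1 (0.33) did not pass. The short-chain fatty acid receptors Ffar2 and Ffar3 stayed below the medians of all arrays.

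Of 24 receptors and peptidases for these hormones, 11 were tested and 0 were called in limma, also at an unadjusted p under 0.05. The largest differences were those of the receptors Glp1r (0.30), Glp2r (-0.25) and Sstr2 (0.24). Among the genes named from these lists, Glp1r, Sstr2, Penk, Scgn, Slc15a1 and Neurog3 reached the median only on arrays titled with prebiotics. The filter therefore favours a difference above 0 for them. The other 13 receptors and peptidases lay below the medians of all arrays and gave no test. Each call in these lists rests on the WT titles, as those of Nts, Gcg and Cck do, since the exchanged fit called 0 genes in the whole table. The calls also depend on the settings. Against 130 genes called higher in the whole table, 68 were without the filter and 21 without the trend. Whether Guca2a, Maoa and Ffar4 were among these is not given here.

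**Figure D4:**
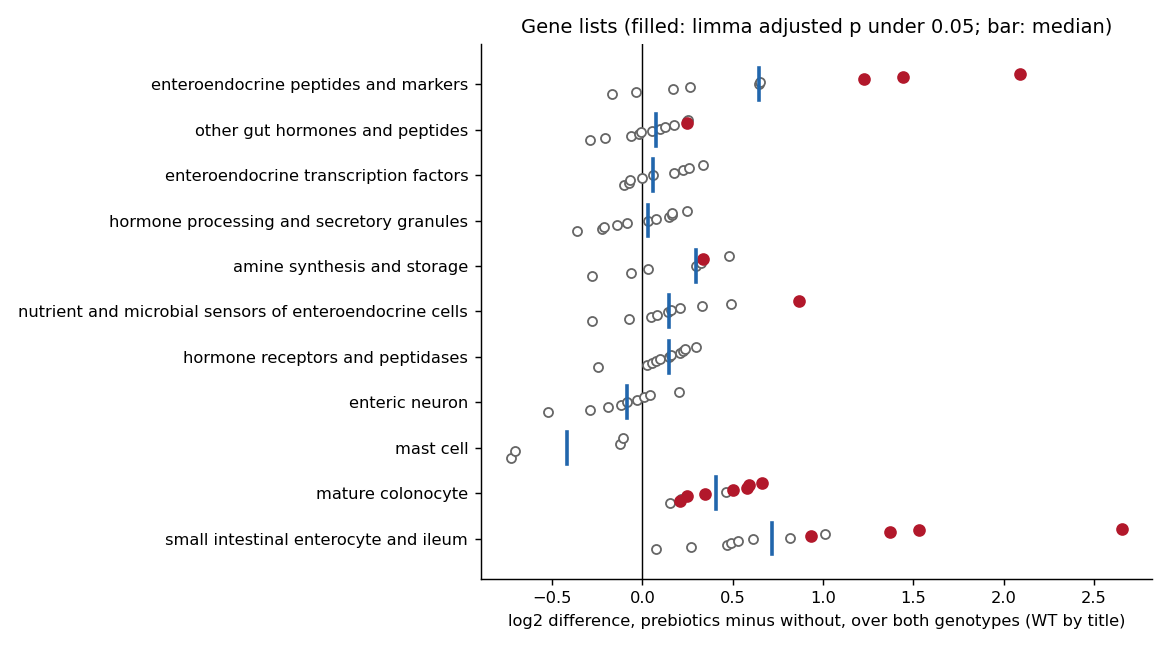
Log2 difference, prebiotics minus without, over both genotypes with WT by title (x axis), for each tested gene (points) of each list (rows), filled where limma's adjusted p was under 0.05, with a blue bar at the list median. The 3 filled points of the enteroendocrine peptides lie to the right of every point of the other hormone, factor, granule, amine, sensor and receptor lists. In the row of small intestinal enterocytes and ileum, Slc10a2 lies to the right of all 3, and Alpi to the right of Gcg and Cck.

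Markers of other cells also differed between these arrays. For comparison, 7208 of all 13083 genes tested were above 0, 0.994% were called higher and 0.26% lower. Of 14 genes of small intestinal enterocytes and ileum, 12 were tested and all 12 were above 0, 4 were called higher and 0 lower, among them the bile acid transporter Slc10a2 at 2.65 and the alkaline phosphatase Alpi at 1.53. Over the 13 of these with a probe set, the summed log2 value was 84.7 and 71.2 in the KO pools with and without prebiotics, and 80.8 and 72.7 on the WT arrays titled with and without them. Lactase (Lct), the 1 gene of these 13 that was not tested, lay below the medians of all arrays. Of 10 mature colonocyte markers 10 were above 0, 7 were called higher and 0 lower, with summed log2 values of 106.0 and 101.8 in the KO pools with and without prebiotics and 105.7 and 101.9 on the WT arrays titled with and without them. The part of either set in the values of Nts, Gcg and Cck was not tested.

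The 6 Paneth cell markers had a summed log2 value of 34.7 in the KO pool with prebiotics, against 18.3 in the KO pool without. It was 18.1 on the WT array with prebiotics by title, against 19.9 on the WT array without. The KO pool with prebiotics was the highest of the 4 for these markers, and their part in the values of Nts, Gcg and Cck was not tested. Of 10 smooth muscle markers 3 were called lower and 0 higher. The summed log2 value of the 10 was 79.4 and 81.1 in the KO pools with and without prebiotics. It was 75.3 and 78.6 on the WT arrays titled with and without them. Of 10 general epithelial markers 1 was called higher, Elf3, and 0 lower. Of 8 goblet cell markers 0 were called in limma, with 4 at an unadjusted p under 0.05, against 1799 of all 13083 genes tested. Of 4 tested adipocyte markers 2 were called lower, Lpl and Fabp4, and 0 higher. By contrast 0 of 2 glial, 0 of 4 tuft cell and 0 of 3 pancreatic markers tested were called in limma.

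Chga, Chgb and Sst are also made by enteric neurons and Tph1 by mast cells. Of 9 tested neuronal markers 0 were called and 3 were above 0, with a summed log2 value over 12 probe sets of 38.1 and 38.4 in the KO pools with and without prebiotics and 36.6 and 38.0 on the WT arrays titled with and without them. Over all 13083 genes tested, 7208 were above 0 and 1799 had an unadjusted p under 0.05 in limma. Of 4 tested mast cell markers 0 were called and 0 were above 0, with 2 at an unadjusted p under 0.05, Mcpt1 (-0.73, limma adjusted p = 0.057) and Mcpt2 (-0.70, limma adjusted p = 0.052). The sums over 9 probe sets were 27.8 and 29.7 in the KO pools with and without prebiotics and 27.1 and 29.0 on the WT arrays so titled. The part of neurons and mast cells in the values of Chga, Chgb, Sst and Tph1 was not tested.

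By the root mean square distance of array values after subtracting each gene's mean, over 4 arrays, the gene closest to Nts was Slc5a8, a transporter of short-chain fatty acids, at 0.16 log2 units, before Slc3a1, a subunit of the cystine transporter, at 0.23 and Mal at 0.26. Closest to Gcg was Alpi at 0.060, with pair differences of 1.22 in KO and 1.84 in WT against 1.21 and 1.67 for Gcg itself. Col1a1, a collagen chain, at 0.15 and Tldc2 at 0.19 came next. Closest to Cck was Saa3, an acute phase protein, at 0.12, followed by the aminopeptidase gene Enpep at 0.16 and Ovol1 at 0.18. Likeness over 4 arrays is a description of these arrays alone.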

How the data were processed

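Caecal RNA was measured on 4 arrays, 1 per pool of 6 mice, with 100 ng of RNA labelled for each. The authors deposited log2 values, made with Affymetrix Expression Console and RMA per the submitters' processing notes. The log base was taken from RMA. The version, settings and genome build are not given in the sources used here. RMA subtracts background, equalises the distributions of the arrays and summarises each probe set, which compresses differences at low values. The array medians lay between 2.92 and 2.93, and the number of arrays limits the precision.

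Of 41345 probe sets, 23521 had 1 gene symbol, 1814 several and 16010 none. The probe set with the highest mean stood for its gene. A gene was tested if it reached, on at least 1 array, the median of that array's probe sets with 1 symbol, which left 13083 genes, 9 of the 10 described among them. Differences were fitted over the whole table with limma 3.58.1 (lmFit, and eBayes with a trend) under R 4.3.3. The prebiotic fit held genotype as a covariate (1 residual degree of freedom) and the genotype fit held no covariate (2 residual degrees of freedom). In the prebiotic fit that 1 residual degree of freedom is the difference between the KO and WT pairs. With eBayes the variance of each gene is moderated by that of the other genes. Tests were two-sided, the Benjamini-Hochberg adjustment ran over every gene in the fit, and calls were made at an adjusted p under 0.05. Single array pairs were described at 2-fold or more. The fits were tested on simulated data. Alternatives were no filter, a stricter filter (75th percentile), averaging probe sets, cyclic loess, median centring, no trend, the WT pair exchanged, diet as a block and leaving out each array.

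The 10 genes and all lists were chosen with earlier results of these data known. From each list the genes called and the 3 with the largest absolute prebiotic difference among those tested were named, with the 3 nearest genes by array pattern for each called gene. Neurog3, Neurod1, Ffar2, Ffar3, Rxfp4, Elf3, Pcsk1 and Lct were added after their values were seen. From the marker lists only examples are named, some after their values were seen. Slc5a1 stands in the sensor list and in the enterocyte list, Guca2a in the hormone and colonocyte lists. Gene symbols were checked in a RefSeq table of GRCm38.p6, where 99.2% of identifiers were found and 0 symbols differed.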

Additional observations from a re-analysis of the deposited data

Results flagged for a closer look

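With WT arrays by title, some contrasts had opposite signs in the 2 groups where they were taken. These were the prebiotic difference of Sct and the genotype differences of Cck, Pyy, Nts and Chgb. The share of all genes with such a change of sign was not taken. For Sct the prebiotic difference was -0.25 in the KO pair and 0.18 in the WT pair, a difference of -0.43. For Cck the KO minus WT difference was 0.45 with prebiotics and -0.56 without, which differ by 1.01. For Pyy these were -0.53 and 0.03, which differ by -0.56. For Nts they were 0.14 and -0.06, which differ by 0.20, and for Chgb -0.10 and 0.01, which differ by -0.12. For Pyy, Nts and Chgb at least 1 of the 2 values was smaller than 0.143, the median residual SD of the genotype fit, so its sign is not well determined. Each value rests on 1 array per group and none of these differences was tested.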

How the results depend on the processing

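The 3 calls rest first on the WT labels. With the WT pair exchanged 0 of the 10 genes were called and 0 were 2-fold higher on the array then taken as prebiotic, with prebiotic differences of -0.23 for Gcg, -0.28 for Pyy and -0.0896 for Sst and WT pair values of -1.99 for Nts and -1.67 for Gcg. Median centring raised the calls to 5, by Pyy and Chga. Nts and Gcg were called under every other alternative with a test. Cck was not tested with the filter at the 75th percentile, and was not called with no filter or no trend. Over the whole table the counts were 130 higher and 34 lower, against 68 and 17 without the filter, 204 and 66 after centring, 21 and 4 without the trend and 0 and 0 with the WT pair exchanged. For genotype 0 of the 10 genes were called under each alternative run, while diet as a block called 12 genes in the whole table by title and 0 with the pair exchanged. Leaving out each array in turn gave genotype differences of -1.05 to 1.13 for Nts, -0.46 to 1.21 for Gcg, -0.92 to 0.81 for Cck, -0.72 to 0.22 for Pyy, -0.27 to 0.0812 for Sst, -0.0877 to 0.57 for Chga and -0.16 to 0.0675 for Chgb, none called. The prebiotic fit without an array has no residual degree of freedom and gives the value of the intact pair. No paired analysis was possible because each group has 1 array and thus no replicate numbers to pair by, though genotype and diet could enter as terms, as above.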
